A study of Sus scrofa with 21 samples.

Results

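The question addressed here is how the effect of a myocardial infarction (MI) on gene expression in the newborn pig heart differed between postnatal day 14 and postnatal day 7. The measure is a difference of differences, MI minus naive hearts on day 14 less MI minus naive hearts on day 7, and it is called the change of the infarct effect below. A positive log2 value means that MI hearts stood higher against naive hearts on day 14 than on day 7. The 4 groups concerned were taken by their labels and hold 12 of the 21 libraries of the series, 3 per group. Since such a value can come from MI hearts, from naive hearts or from both, each gene was also placed on a side.

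The MI pigs had the left descending coronary artery tied off for good on postnatal day 1 and were killed on day 7 or day 14. RNA came from the border zone beside the ischaemic muscle, so the samples were not taken as scar or as remote muscle. How much of either a piece held was not measured. The control pigs were of the same 2 ages and gave tissue from the corresponding region. Their titles call them naive, while the treatment protocol describes an operation without the ligation. The sources used here do not settle which holds, so an effect of the operation itself cannot be told apart from that of the infarct if the controls were not operated on. All pigs came from 1 supplier and were hand-fed on colostrum and milk in an incubator. Genotype, breed, sex, litter and sequencing batch were not given in the sources used here. Each library carries the number of its own pig. Naive hearts of days 1, 3 and 28 and MI hearts of day 28 entered only as further values and in the shared estimate of the spread.

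At birth the heart muscle cells of a pig still divide, and in the first days of life the heart can replace muscle lost to injury. Within the following days these cells leave the cell cycle, switch to adult contractile proteins and burn fatty acids, and an injury then ends in a scar built by fibroblasts. In the border zone of an infarct, surviving muscle cells lie beside inflammatory cells and fibroblasts that lay down matrix. In bulk tissue such as this, fewer cells of a type and less RNA per cell cannot be told apart.

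Several of the 12 libraries stood apart. The naive day 7 libraries were the shallowest, with 37002909 to 48321350 counts and 16025 to 16110 genes detected, against 51713747 to 95559841 counts and 16477 to 17451 genes in the other 9. MI day 7 replicate 3 and naive day 14 replicate 3 belong to a second set of 4 libraries in the series, in which ENSSSCG00000035520 was at 5.06 to 12.1 CPM (the count scaled to library size) against 2820 to 8810 CPM in the other 17. The labels name no batch that corresponds to this set. Both libraries enter the change of the infarct effect with a negative sign. MI day 14 replicate 2 was the highest of the 12 libraries for 7 of 8 epicardial and mesothelial markers, 26 of 39 extracellular matrix genes and 16 of 22 antigen presentation and complement genes, against 13.4% of all genes tested. All 12 libraries were heart muscle by their markers: the summed level of 11 cardiomyocyte markers was 59100 CPM in MI day 14 replicate 2 and 71800 to 112000 CPM in the other 11.

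Of 15359 genes tested, 1 was called in the change of the infarct effect by edgeR's quasi-likelihood test (Benjamini-Hochberg adjusted p under 0.05), which is 0.00651%. It was lower. In each of the 4 simple comparisons the test called 0 genes (0.0%): MI hearts day 14 against day 7, naive hearts day 14 against day 7, and MI against naive hearts on day 7 and on day 14. At an unadjusted p under 0.05 these comparisons held 625, 1357, 1905 and 821 genes, and DESeq2 called 33, 90, 263 and 14. The smallest adjusted p by edgeR was 0.404, 0.117, 0.076 and 0.476. For the change of the infarct effect itself DESeq2 called 27 genes, 6 higher and 21 lower. The values below the adjusted threshold are therefore descriptions of these 12 hearts, read against the share of all genes that reached the same unadjusted p.

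At an unadjusted p under 0.05, 383 genes were higher (2.49% of those tested) and 703 were lower (4.58%). The lower genes made up 64.7% of the 1086, and 53.9% when libraries were scaled by DESeq2's size factors, which moved the median of all genes from -0.036 to 0.024. This share also moved with single libraries. It was 51.3% without naive day 14 replicate 1, 69.5% without naive day 14 replicate 2 and 54.5% without the 2 second-set libraries. A gene was put on the MI side when MI hearts contributed more than 66.7% of its change, on the naive side when they contributed less than 33.3%, and on both sides otherwise. Of the 703 lower genes, 430 (61.2%) were on the naive side, 222 on both and 51 (7.25%) on the MI side. The 383 higher genes were spread more evenly, with 117 (30.5%) on the MI side, 146 on both and 120 (31.3%) on the naive side. Of all 15359 genes tested, 7340 were on the naive side, 3071 on both and 4948 on the MI side. A test of the sum of the sides compares their sizes only where they run in opposite directions. Over all genes, whatever their directions, edgeR called 0 for this sum (smallest adjusted p 0.661, with 916 at an unadjusted p under 0.05). DESeq2 called 18 and voom with sample weights 1. By edgeR, 133 of the 430 lower naive-side genes and 13 of the 51 lower MI-side genes had an unadjusted p under 0.05 for the sum. Among higher genes these were 20 of 120 and 41 of 117. The side of a gene is given as a description. For 237 of the 430 lower genes on the naive side, all 3 naive day 7 libraries lay below the other 9, against 3.33% of all genes tested. By definition these 430 genes had a lower fitted level in naive hearts on day 7 than on day 14. The choice of genes thus favours that position, which is no separate support for it.

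**Figure D1:**
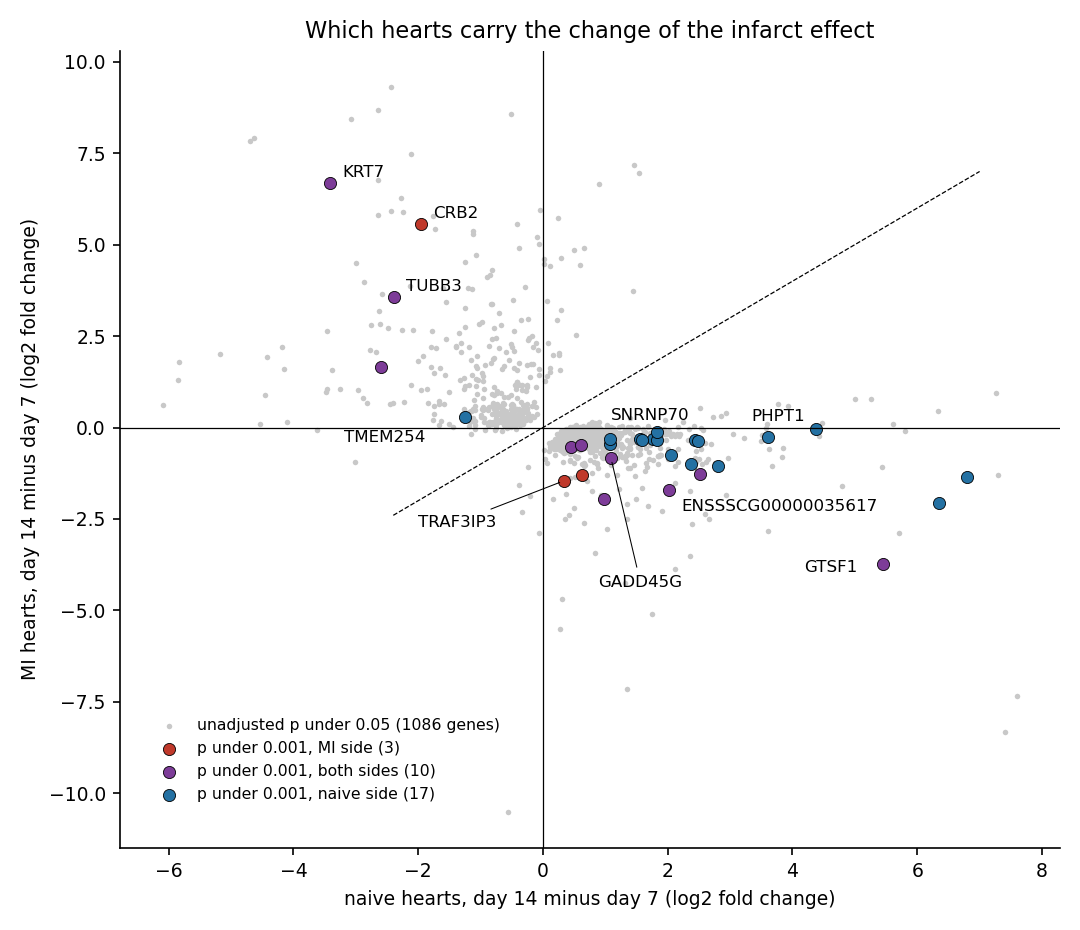
Each point is a gene, with its log2 fold change from day 7 to day 14 in naive hearts on the horizontal axis and in MI hearts on the vertical axis. Grey points are the 1086 genes with an unadjusted p under 0.05, coloured points the 30 genes with p under 0.001, and genes below the dashed line of equal change have a lower infarct effect on day 14. Most of the coloured points below the line lie near the horizontal axis, where naive hearts differ between the days and MI hearts differ little.

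An unadjusted p under 0.001 was reached by 30 genes (0.195%), 5 higher and 25 lower. Of these 30, 17 were on the naive side, 10 on both and 3 on the MI side. Of the 25 lower genes, 16 were on the naive side, and for 14 of those the naive day 7 libraries were the lowest of the 4 groups without overlap. The choice of lower genes on the naive side favours that pattern here too. It was found for 512 genes in all (3.33%), and the opposite one, naive day 7 highest, for 289 (1.88%). It is given beside the depth of these libraries: with every library thinned at random to the smallest total, the counts were 439 (2.86%) and 259 (1.69%), against 42 to 99 for the lowest or highest position of any other group. A group whose libraries lie close together also stands apart more easily. Pairs of naive day 7 libraries differed by 51.7 to 95.1 times counting noise, a measure that also grows with depth. Pairs within the other groups differed by 96.4 to 497 times. The part of this closeness in the counts was not tested.

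The called gene was ENSSSCG00000035617, which has no symbol in the names given with the data and whose product is not named here. Its level in MI hearts was 62.4, 33.6 and 50.2 CPM on day 7 and 14.0, 15.2 and 15.4 CPM on day 14. In naive hearts it was 8.87, 9.67 and 13.7 CPM on day 7 and 29.6, 44.2 and 57.2 CPM on day 14. MI hearts thus stood above naive hearts on day 7 and below them on day 14, without overlap on either day. The change of the infarct effect was -3.74 on the log2 scale (SE 0.52, edgeR adjusted p = 0.0236), made up of -1.71 in MI hearts and 2.02 in naive hearts. It is therefore a gene of both sides. On day 28 MI hearts were at 5.44 and 14.5 CPM and naive hearts at 43.5, 57.7 and 50.0 CPM, a log2 difference of -2.34 (edgeR adjusted p = 0.0136) in pigs that the change of the infarct effect does not use. The naive hearts of days 1 and 3, at 27.3 to 56.9 CPM, lay above all 3 naive hearts of day 7. The value ranged from -3.94 to -3.35 over 23 other settings and was called in 10 of them, with adjusted p from 2.96e-08 to 0.179. It was not called without the second set, without its 2 libraries here (-3.42) or with a term for the set (-3.35). Without those 2 libraries edgeR again called 1 gene, which was a different one.

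The remaining genes were not called by edgeR. Of those described below, DESeq2 called GADD45G, TRAF3IP3, ZBTB16, SNRNP70, ALS2CL, PHPT1, RGL2, MAP3K2, ssc-mir-378-1, ENSSSCG00000038778, NEBL, SFRP4, KRT7, TUBB3, GTSF1, CARMIL3 and ENSSSCG00000038196. GADD45G, a stress-induced gene whose protein can hold cells in G2, was the symbol-bearing gene with the smallest p. In MI hearts it was at 49.9, 38.2 and 56.4 CPM on day 7 and at 33, 26.6 and 21 CPM on day 14. In naive hearts it was at 44.2, 37.1 and 26.5 CPM on day 7 and at 59.8, 84.3 and 85.5 CPM on day 14. The naive day 14 libraries lay above all others, and the MI day 14 libraries lay below those of MI day 7. Its change was -1.93 (SE 0.37, adjusted p = 0.412), with -0.84 from MI hearts and 1.09 from naive hearts. On day 28 the difference between MI and naive hearts was 0.50 (adjusted p = 0.281).

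**Figure D2:**
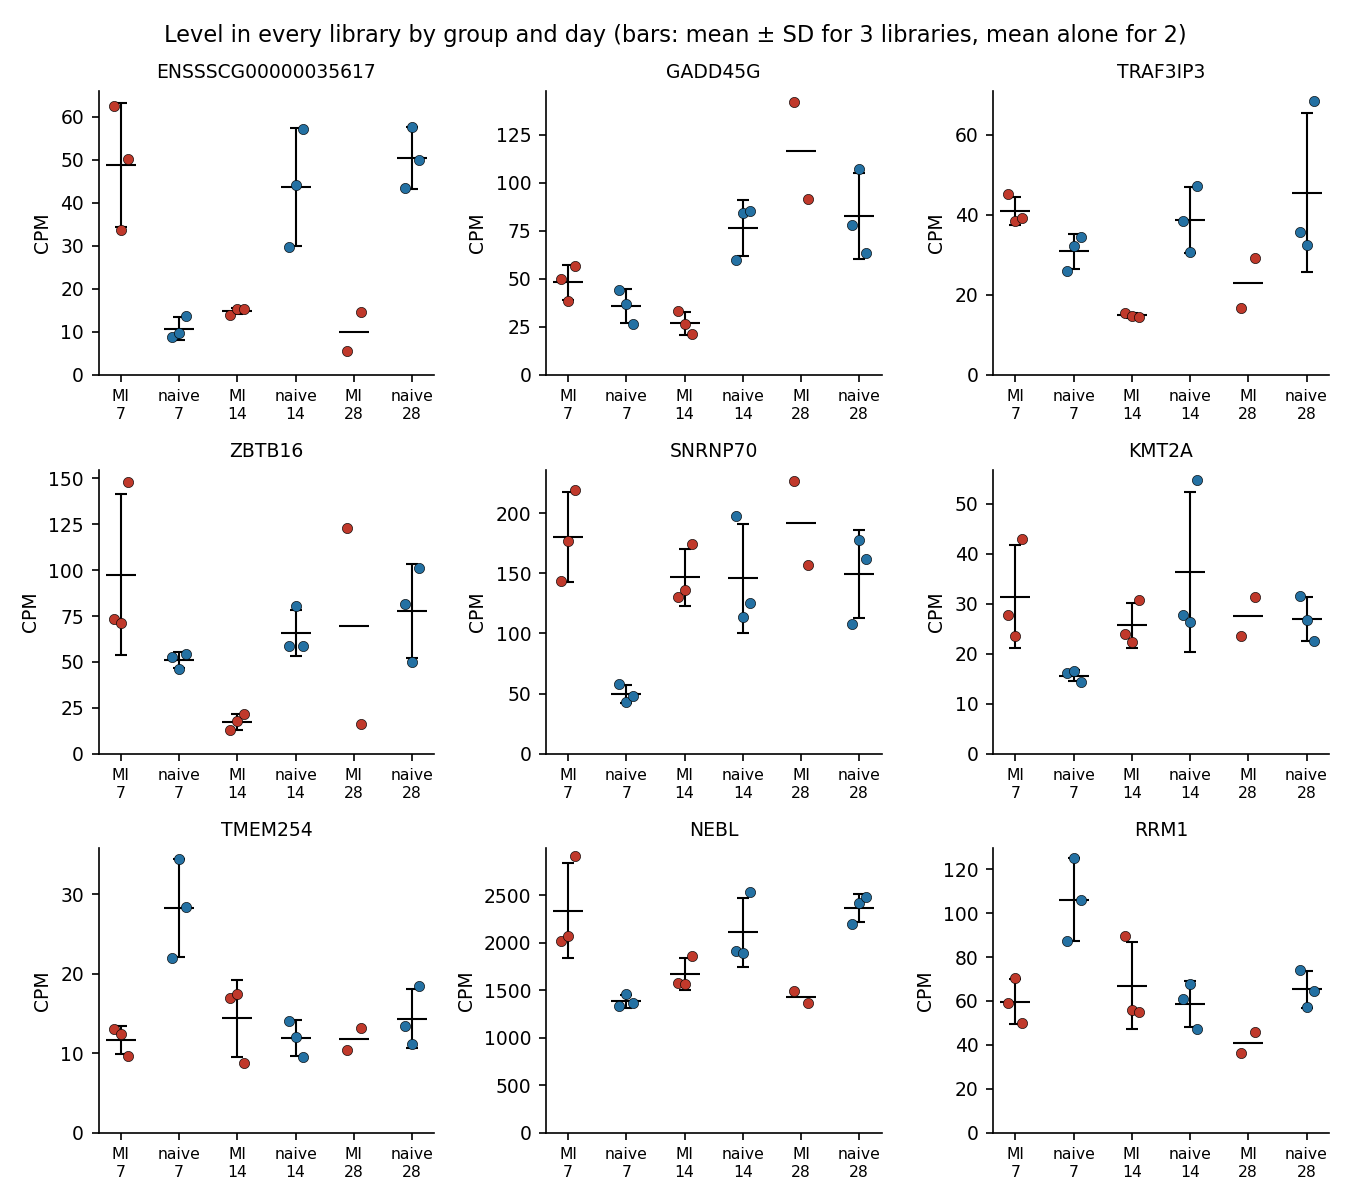
Levels in CPM on linear axes for 9 genes in MI (red) and naive (blue) hearts on days 7, 14 and 28, with a point per library and a bar for the mean, with the SD where the group has 3 libraries. ENSSSCG00000035617 and GADD45G differ in both kinds of heart, TRAF3IP3 and ZBTB16 are low in MI hearts of day 14, and SNRNP70, KMT2A and NEBL are low in naive hearts of day 7.

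On the MI side, TRAF3IP3, an adaptor in the signalling of lymphocytes, was at 45.1, 38.5 and 39.3 CPM in MI hearts on day 7 and at 15.5, 14.6 and 14.5 CPM on day 14. It was in naive hearts at 25.9, 32.3 and 34.4 CPM and at 38.5, 30.6 and 47.1 CPM. The MI day 14 libraries lay below the other 9, and the MI day 7 libraries above all naive day 7 libraries. Its change was -1.79 (SE 0.37, adjusted p = 0.445), with -1.46 from MI hearts and 0.33 from naive hearts. 

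ZBTB16 (PLZF), a transcription factor induced by glucocorticoids, had the same form. In MI hearts it was at 73.3, 71.2 and 148 CPM on day 7 and at 12.9, 17.7 and 21.5 CPM on day 14, where naive hearts were at 46.4 to 54.2 and 58.4 to 80.2 CPM. Again the MI day 14 libraries were the lowest of the 12 without overlap. Its change was -2.85 (SE 0.72, adjusted p = 0.472), with -2.49 from MI hearts and 0.36 from naive hearts. The infarct effect on ZBTB16 was 0.93 on day 7, -1.92 on day 14 and -0.16 on day 28.

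CDC25B, the phosphatase that starts mitosis by activating CDK1, was the member of the G2 and mitosis list with the smallest p and the only 1 of 34 that was lower. MI hearts were at 63.6, 80.8 and 80.3 CPM on day 7, above the 38.9 to 55.4 CPM of all other 9 libraries. The change was -0.94 (SE 0.25, adjusted p = 0.472), with -0.74 from MI hearts. UNC13D, needed for the release of cytotoxic granules, was the other lower gene of the MI side at p under 0.001, with 8.34 to 17.7 CPM in MI hearts of day 7, 5.05 to 5.22 CPM in MI hearts of day 14, and 5.18 to 14.2 CPM in naive hearts. UNC13D was named after its values were seen.

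The naive side held the largest group of lower genes. SNRNP70, a protein of the U1 spliceosomal particle, was at 57.6, 42.7 and 48.0 CPM in naive hearts on day 7 and at 198, 114 and 125 CPM on day 14. MI hearts were at 144, 177 and 219 CPM on day 7 and at 130, 136 and 174 CPM on day 14. Only the naive day 7 libraries stood apart, below the other 9. The change was -1.86 (SE 0.43, adjusted p = 0.445), with -0.30 from MI hearts and 1.56 from naive hearts.

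Other genes with the naive day 7 libraries lowest without overlap were ALS2CL (-2.15), PHPT1, a histidine phosphatase (-3.88), RGL2, an effector of Ras-like GTPases (-2.87), the kinase MAP3K2 (-1.95), ssc-mir-378-1 (-3.87) and RF01880 (-4.42), the last 2 at under 0.5 CPM in all 12 libraries. PHPT1 was at 0.514, 0.0247 and 0.171 CPM in naive hearts on day 7 and at 1.84 to 4.50 CPM in the other 9 libraries. The same position was seen for LENG8, the chromatin regulator KMT2A and the p53 inhibitor MDM4, which were named after their values were seen. KMT2A was at 16.1, 16.5 and 14.3 CPM in naive hearts on day 7 and at 22.4 to 54.8 CPM in the other 9, and MDM4 at 8.15 to 8.85 CPM against 13.2 to 23.3 CPM. The change was -1.51 for KMT2A and -1.14 for MDM4. Without the 2 second-set libraries it was -0.76 for KMT2A and -0.70 for MDM4, while SNRNP70 was at -1.76. ENSSSCG00000038778 and ENSSSCG00000034823 had no read in any naive day 7 library and at most 0.858 and 0.292 CPM elsewhere among the 12.

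**Figure D3:**
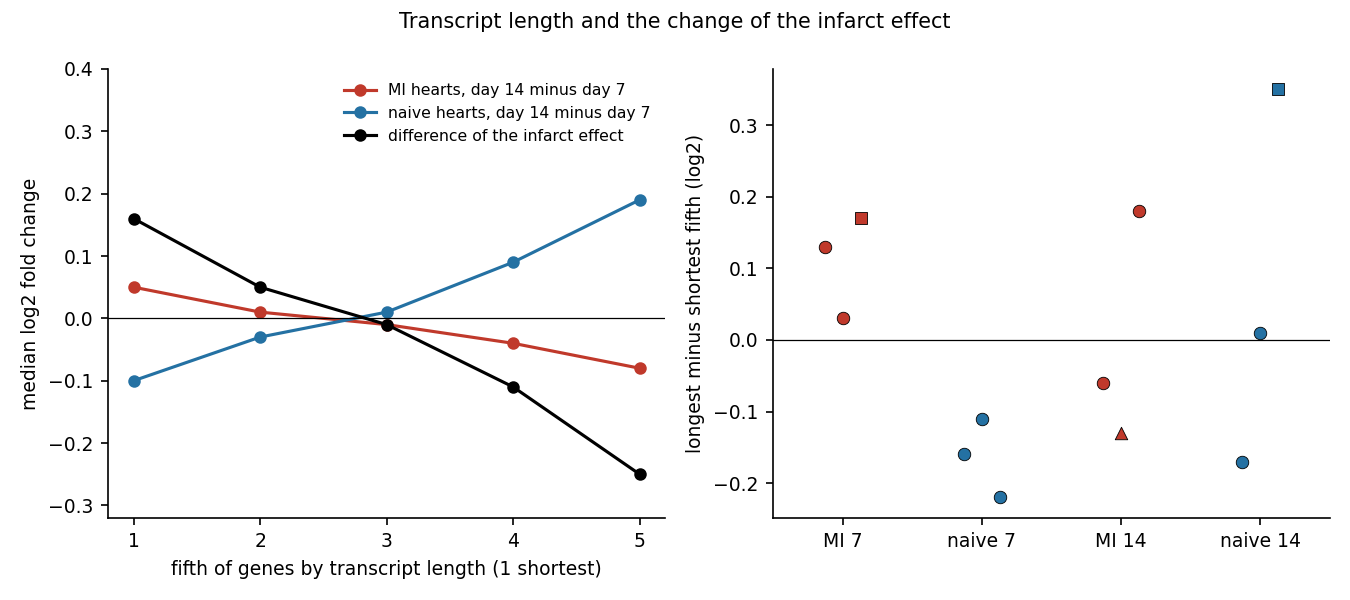
Left, the median log2 fold change of genes in 5 groups by transcript length, from the shortest (1) to the longest (5), in MI hearts, in naive hearts and for the change of the infarct effect. Right, the longest group minus the shortest in each library, in log2 units, with squares for the libraries of the second set and a triangle for MI day 14 replicate 2. The 3 naive day 7 libraries lie at -0.22 to -0.11.

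Transcript length moved with these values. A length was found for 12770 of the 15359 genes (83.1%), as the longest RefSeq transcript of the Sscrofa11.1 annotation. With these genes in 5 groups of about equal number by length, the median change of the infarct effect was 0.16 in the shortest group, then 0.05, -0.01 and -0.11, and -0.25 in the longest. The median of naive hearts ran from -0.10 to 0.19. By library, the longest minus the shortest group was -0.16, -0.11 and -0.22 for naive day 7, -0.17, 0.01 and 0.35 for naive day 14, 0.13, 0.03 and 0.17 for MI day 7, and -0.06, -0.13 and 0.18 for MI day 14. Without MI day 7 replicate 3 and naive day 14 replicate 3 the shortest and longest groups were at 0.14 and -0.06. The 5 groups by GC content lay between -0.06 and -0.01. The part of transcript length, depth or library set in the naive-side genes was not tested.

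Genes of S phase and of mitosis had higher values, and these too were mostly on the naive side. The list of G1 cyclins and CDK inhibitors had a median of -0.09, with 8 genes higher and 14 lower. Of 32 genes of DNA replication and S phase, 32 had a positive value, with a median of 1.16 against -0.04 over all genes, made up of 0.16 in MI hearts and -0.94 in naive hearts. An unadjusted p under 0.05 was reached by 2 of them, both higher, against 2.49% of all genes. On the naive side were 26, against 7340 of all 15359 genes. In naive hearts, 12 of the 32 were lower on day 14 than on day 7 at that threshold, against 2.73% of all genes. The median infarct effect was -1.02 on day 7 and 0.15 on day 14. Naive day 7 libraries were the highest without overlap for 9 of the 32, against 1.88% of all genes.

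RRM1, the large subunit of the ribonucleotide reductase that makes DNA precursors, was at 59.0, 70.3 and 50.0 CPM in MI hearts on day 7 and at 89.7, 55.7 and 55.2 CPM on day 14. The naive hearts had 87.4, 125 and 106 CPM on day 7 and 60.8, 67.6 and 47.1 CPM on day 14. Naive hearts of day 7 lay above those of day 14 and above MI hearts of day 7, and overlapped with MI hearts of day 14 in 1 library. The change was 1.02 (SE 0.30, adjusted p = 0.506), with 0.16 from MI hearts and -0.86 from naive hearts. PCNA, the sliding clamp of DNA polymerases, was at 79.5, 110 and 81.3 CPM in naive hearts on day 7 and at 18.2 to 72.2 CPM in the other 9 libraries (change 1.31, adjusted p = 0.668). CCNE2, MCM6 and CDK2, which drive or carry out the start of S phase, were likewise highest in naive hearts of day 7, with changes of 1.41, 1.12 and 0.91. CDK2 is a member of the G1 list, not of the S phase list. Without the 2 second-set libraries PCNA was at 0.70 and MCM6 at 0.54. PCNA, CCNE2, MCM6 and CDK2 were named after their values were seen.

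Of 34 genes of G2 and mitosis, 33 had a positive value, with a median of 1.31 (0.23 in MI hearts, -1.02 in naive hearts). Against 7340 of all 15359 genes, 29 of these 34 were on the naive side. These genes spread widely within groups. TOP2A, which untangles DNA before mitosis, was at 77.2, 106 and 4.84 CPM in MI hearts on day 7 and at 119, 67.7 and 20.1 CPM on day 14. Naive hearts were at 83.2, 146 and 93.8 CPM and at 77.1, 47.5 and 17.0 CPM. The naive groups did not overlap with each other, while the MI groups did. The change was 1.32 (SE 1.16, adjusted p = 0.848), and 0.41 without the 2 second-set libraries. MKI67, the proliferation marker, was at 23.5 to 138 CPM and 40.3 to 240 CPM in MI hearts and at 50.5 to 173 CPM and 28.8 to 87.9 CPM in naive hearts (change 1.35, adjusted p = 0.843). The change for MKI67 was 0.40 without MI day 14 replicate 2 and 0.65 without the 2 second-set libraries. CCNB1 and CDK1, the cyclin and kinase of mitotic entry, had changes of 1.41 and 1.80 (adjusted p = 0.847 and 0.821), which were 0.46 and 0.83 without the 2 second-set libraries.

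**Figure D4:**
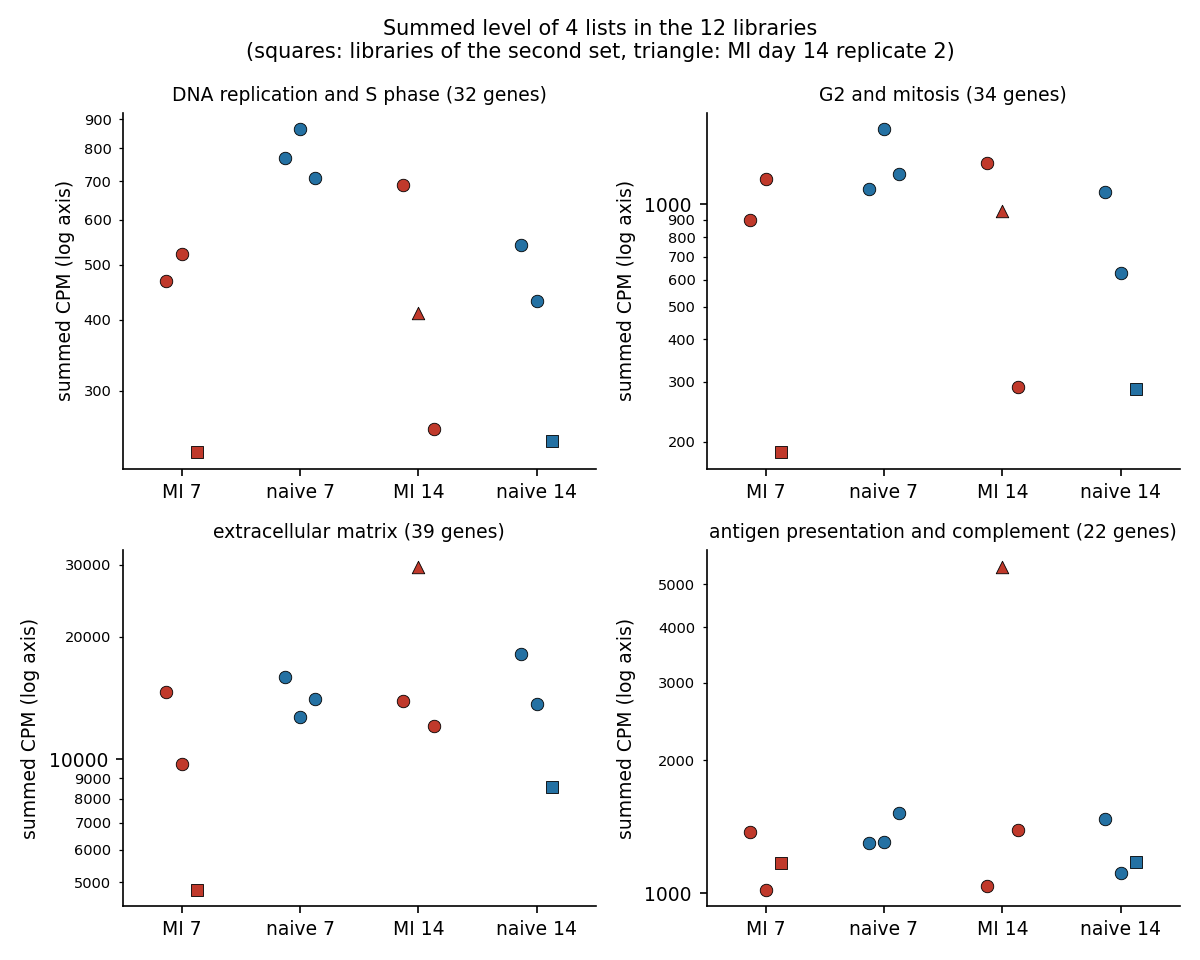
Summed CPM (log axes) of 4 gene lists in each of the 12 libraries, with MI hearts in red and naive hearts in blue, squares for the 2 libraries of the second set and a triangle for MI day 14 replicate 2. The S phase sum is highest in the 3 naive hearts of day 7 (709 to 864 CPM), both squares are low for the cell-cycle lists, and the triangle is high for matrix and for antigen presentation and complement.

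The S phase and mitosis values rest in part on the second-set libraries. The summed level of the S phase list was 469, 522 and 234 CPM in MI hearts on day 7 and 690, 412 and 257 CPM on day 14. It was 771, 864 and 709 CPM in naive hearts on day 7 and 542, 431 and 245 CPM on day 14. The naive day 7 libraries lay above the rest, and the second-set library was the lowest of its group both in MI hearts of day 7 and in naive hearts of day 14. Younger naive hearts also lay below naive day 7, at 677 and 515 CPM on day 1 and 524 and 552 CPM on day 3. The G2 and mitosis sum in naive hearts was 902 and 604 CPM on day 1, 578 and 865 CPM on day 3, and 1110 to 1660 CPM on day 7. For G2 and mitosis, MI day 7 replicate 3 was the lowest of the 12 libraries for 32 of 34 genes, against 15.6% of all genes tested. Without the 2 second-set libraries the medians were 0.58 for S phase, with 31 of 32 positive, and 0.41 for G2 and mitosis. The corresponding medians in naive hearts were then -0.72 and -0.67, with 5 of 32 S phase genes lower at p under 0.05, against 281 of all 15359 genes. In MI hearts MCM6, TOP2A, CCNB1 and PCNA then differed from day 7 to day 14 by -0.41, -0.40, -0.27 and -0.21. CDK1, CCNE2, MKI67 and RRM1 were at -0.10, -0.08, -0.03 and 0.06 there.

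On the MI side, genes of the extracellular matrix had higher values on day 14. Of 39 matrix genes, 37 had a positive change, with a median of 0.90, made up of 0.72 in MI hearts and -0.12 in naive hearts. In MI hearts 6 of them were higher on day 14 at an unadjusted p under 0.05, against 2.81% of all genes. COL1A1, the main chain of fibrillar collagen, was at 1440, 737 and 314 CPM in MI hearts on day 7 and at 1760, 5730 and 1360 CPM on day 14. The naive hearts were at 2030, 1200 and 1600 CPM and at 2570, 1600 and 502 CPM, and all groups overlapped. The change for COL1A1 was 1.88 (SE 1.11, adjusted p = 0.785), 0.96 without MI day 14 replicate 2 and 1.12 without the 2 second-set libraries.

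MI day 14 replicate 2 set much of this. TIMP1, an inhibitor of matrix proteases, was at 343 CPM in that library and at 15.2 to 30.0 CPM in the other 11. Its change was 2.67 (SE 0.98, adjusted p = 0.615), and 0.30 without that library. FN1, fibronectin, was at 1780 CPM there and at 83.4 to 423 CPM elsewhere, with a change of 2.27, and 0.73 without it. The median of the matrix list was 0.40 without that library and 0.37 without the 2 second-set libraries. MI day 7 replicate 3 was the lowest of the 12 for 25 of the 39 genes. Fibroblast markers had a median of 1.00, with 13 of 14 positive, and 0.74 without MI day 14 replicate 2, 0.68 without MI day 7 replicate 3 and 0.60 without the 2 second-set libraries. FN1 was named after its values were seen.

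Medians of the macrophage, inflammatory and complement lists were also lower without that library. The inflammatory list (25 genes) had a median of 0.99 and the antigen presentation and complement list (22 genes) 0.80, and these were -0.07 and 0.00 without MI day 14 replicate 2. The complement factor CFI was at 115 CPM in that library and at 0.297 to 5.22 CPM in the other 11 (change 4.32, adjusted p = 0.626), and its change was 0.87 without it. CFB and C3, also of the complement system and named after their values were seen, were at 54.4 and 1740 CPM there, and at 0.173 to 1.52 and 25.2 to 202 CPM elsewhere. Macrophage markers had a median of 0.56, and -0.11 without that library. The scavenger receptor MARCO went from 3.46 to -1.21 and the macrophage marker CD68 from 0.51 to -0.03.

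The chemokine CXCL12, which holds progenitor cells in tissue, differed less by library. It was at 7.00, 6.37 and 3.58 CPM in MI hearts on day 7, the lowest of the 4 groups without overlap, and at 16.3, 46.9 and 10.2 CPM on day 14. Naive hearts were at 7.2 to 12.4 CPM on both days. Its change was 2.19 (SE 0.84, adjusted p = 0.637), with 2.11 from MI hearts, and 1.31 without MI day 14 replicate 2.

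Among the higher genes with the smallest p were markers of the mesothelium, the epithelium that covers the heart. UPK3B was at 9.34 CPM in MI day 14 replicate 2 and at most 2.68 CPM elsewhere. KRT7, a keratin of simple epithelia, was at 7.68 CPM in that library and at most 1.05 CPM elsewhere. CRB2, a protein of epithelial polarity, was at 0.158, 6.24 and 0.196 CPM in MI hearts on day 14, at 0.0125 to 0.0924 CPM in MI hearts on day 7, and at 0.0225 to 0.541 CPM in naive hearts. Its change was 7.53 (SE 1.74, adjusted p = 0.445), and 3.92 without MI day 14 replicate 2. All 8 epicardial and mesothelial markers tested had positive values, with a median of 1.63, and 0.88 without that library. Their summed level was 292 CPM in MI day 14 replicate 2 and 44.4 to 138 CPM in the other 11. The part of this tissue in the values of that library was not tested.

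Other higher genes with small p were seen at low levels. TUBB3, a neuronal beta-tubulin, was at 0.0132 to 0.0997 CPM in MI hearts on day 7 and at 0.0589 to 1.42 CPM on day 14, and at 0.352 to 0.407 CPM and 0.0225 to 0.11 CPM in naive hearts (change 5.95, adjusted p = 0.445). SFRP4, a secreted Wnt antagonist, was at 1.59, 0.68 and 0.594 CPM in MI hearts on day 7 and at 6.78, 4.93 and 1.63 CPM on day 14, so that the MI groups did not overlap. In naive hearts it ran the other way, with 2.57 to 4.01 CPM on day 7 and 0.315 to 1.62 CPM on day 14. Its change was 4.01 (SE 1.05, adjusted p = 0.472). DRP2, a relative of dystrophin, was at 0.0225 to 0.396 CPM and MARCH10, a ubiquitin ligase, at 0.0225 to 1.76 CPM. VWCE and RNF32 were at or below 0.253 CPM in all 12 libraries.

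TMEM254 and RANGAP1 were the higher genes of this set with more than 5 CPM in every library. TMEM254, a membrane protein, was at 22.0, 34.4 and 28.4 CPM in naive hearts on day 7 and at 8.73 to 17.5 CPM in the other 9 libraries, without overlap. Its change was 1.55 (SE 0.38, adjusted p = 0.472), on the naive side, and 1.33 without the 2 second-set libraries. RANGAP1, which powers nuclear transport, had a change of 0.92 on both sides.

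Genes of the contractile apparatus had slightly lower values. Of 16, 14 were negative, with a median of -0.37 (-0.23 in MI hearts, 0.21 in naive hearts), and -0.22 without the 2 second-set libraries. NEBL (nebulette), which anchors thin filaments at the Z-disc of heart muscle, was at 2020, 2070 and 2910 CPM in MI hearts on day 7 and at 1580, 1560 and 1860 CPM on day 14. The naive hearts had 1330, 1460 and 1360 CPM on day 7 and 1910, 1890 and 2530 CPM on day 14. The naive day 7 libraries were lowest without overlap and the MI groups did not overlap with each other. The change was -1.09 (SE 0.28, adjusted p = 0.472), with -0.48 and 0.61 from the sides, and -0.72 without the 2 second-set libraries.

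MYO18B, an unconventional myosin needed to assemble sarcomeres, was at 211, 236 and 181 CPM in MI hearts on day 7 and at 158, 130 and 150 CPM on day 14. The naive hearts were at 155, 120 and 126 CPM and at 151, 177 and 221 CPM. The MI hearts of day 7 lay above those of day 14 and above naive hearts of day 7, and overlapped with naive hearts of day 14. The change was -0.98 (SE 0.24, adjusted p = 0.472), about evenly from both sides. The main cardiac myosin MYH7 had a change of -0.58 (adjusted p = 0.827), and 0.00 without the 2 second-set libraries.

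The natriuretic peptides, which stretched or stressed muscle releases, varied widely between libraries. NPPB was at 225, 80.8 and 34 CPM in MI hearts on day 7 and at 5.42, 8.04 and 3.01 CPM on day 14. In naive hearts it was at 4.87, 78.8 and 13.8 CPM and at 9.59, 22.2 and 15.0 CPM. The MI groups did not overlap, but naive day 7 replicate 2 reached the range of MI hearts of day 7. The change was -3.31 (SE 1.89, adjusted p = 0.776), with -4.37 from MI hearts and -1.06 from naive hearts. NPPA was at 80.8 to 1400 CPM and 18.7 to 156 CPM in MI hearts and at 24.3 to 313 CPM and 5.49 to 38.4 CPM in naive hearts, and the change of -0.41 (SE 2.06, adjusted p = 0.986) ran from -2.49 to 1.49 as single libraries were left out.

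Genes of the heat shock and protein folding list were slightly higher, 21 of 25, with a median of 0.41 (0.35 in MI hearts, -0.11 in naive hearts) and 0.23 without MI day 7 replicate 3, which was the lowest of the 12 libraries for 18 of the 25. ASNS, the asparagine synthetase induced by amino acid shortage, was at 6.72, 6.5 and 6.4 CPM in MI hearts on day 7, below the other 9 libraries, and at 7.97, 16.4 and 19.6 CPM on day 14. Naive hearts were at 7.24 to 11.7 CPM on both days. Its change was 1.41 (SE 0.44, adjusted p = 0.547), with 1.16 from MI hearts and -0.25 from naive hearts. HSP90B1 and XBP1, a chaperone and a transcription factor of the endoplasmic reticulum named after their values were seen, had changes of 0.86 and 0.76.

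Among growth factors and their receptors, 2 of 32 were higher and 2 lower at an unadjusted p under 0.05, against 2.49% and 4.58% of all genes. The receptor IGF1R was at 105, 107 and 153 CPM in MI hearts on day 7, and at 54.4 to 84.1 CPM on day 14. Naive libraries had 54.4 to 68.1 CPM on day 7 and 60.5 to 139 CPM on day 14. MI hearts of day 7 overlapped with 1 naive library of day 14 and with no other. The change was -1.36 (SE 0.44, adjusted p = 0.563), and -0.72 without the 2 second-set libraries. VEGFA, which drives vessel growth, was at 89.2, 69.3 and 79.8 CPM in naive hearts on day 7 and at 93.7 to 231 CPM in the other 9, a change of -1.15 (adjusted p = 0.615) on the naive side.

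ERBB3 and FGF16, named after their values were seen, differed between days in MI hearts more than in the change of the infarct effect. ERBB3, a neuregulin receptor, was at 1.00 to 2.65 CPM in MI hearts on day 7 and at 4.95 to 9.05 CPM on day 14, while naive hearts were at 3.03 to 3.64 and 4.36 to 9.64 CPM (change 1.27, adjusted p = 0.809, and 0.83 without the 2 second-set libraries). FGF16, a growth factor of heart muscle, was at 2.86 to 2.98 CPM and 0.579 to 1.72 CPM in MI hearts, and at 2.23 to 4.75 and 1.67 to 3.64 CPM in naive hearts (change -1.05, adjusted p = 0.784).

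Further lists are described by the member with the smallest p. TNNT2, cardiac troponin T, was at 4650 to 6880 CPM in MI hearts and at 3460 to 4910 CPM on day 7 and 6630 to 7470 CPM on day 14 in naive hearts (change -0.82, adjusted p = 0.674). TCF21, a transcription factor of cardiac fibroblasts, was at 16.7 to 32.4 CPM and 22.5 to 51.2 CPM in MI hearts and at 9.85 to 26.6 CPM in naive hearts, with a change of 1.09, and 0.68 without the 2 second-set libraries. EGR1, an immediate early transcription factor, was at 19.9 to 22.6 CPM in naive hearts of day 7 and at 30.4 to 142 CPM in the other 9 libraries, with a change of -1.75, and -1.02 without those 2. The B cell receptor subunit CD79A and the smooth muscle protein TAGLN were also lowest in naive hearts of day 7, with changes of -1.67 and -1.83, at levels of up to 2.41 and 1.15 CPM. Each was the only member of its list with that position. Of the 19 lymphocyte markers 16 had a positive change (median 0.42). Of the 14 smooth muscle and pericyte markers 6 were positive and 8 negative (median -0.09).

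For the YAP target AMOTL2, a change of -0.81 was split between -0.39 in MI hearts and 0.42 in naive hearts, and all 4 groups overlapped in part. For RORA, a nuclear receptor of the circadian clock, it was -1.28, and -0.18 without the 2 second-set libraries. NGFR, a receptor of nerve and Schwann cells, was at 0.37 to 2.96 CPM in MI hearts on day 7 and at 3.31 to 13.3 CPM on day 14, without overlap, and at 1.28 to 5.38 CPM in naive hearts, with a change of 2.27 (adjusted p = 0.713), and 1.47 without those 2. POSTN, a matrix protein of activated fibroblasts, had a change of 2.07 (SE 1.33) and the smooth muscle actin ACTA2 a change of 0.64 (SE 0.56), which were 1.23 and 0.27 without the 2 second-set libraries. PTPRC (CD45), carried by all white blood cells, was at 10.7 to 26.5 CPM in the 12 libraries, with a change of -0.55 (SE 1.01), and -0.36 without those 2. The lower genes GTSF1, a germline protein, and CARMIL3, a regulator of actin capping, were at 0 to 7.92 CPM and 0.173 to 2.95 CPM.

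**Figure D5:**
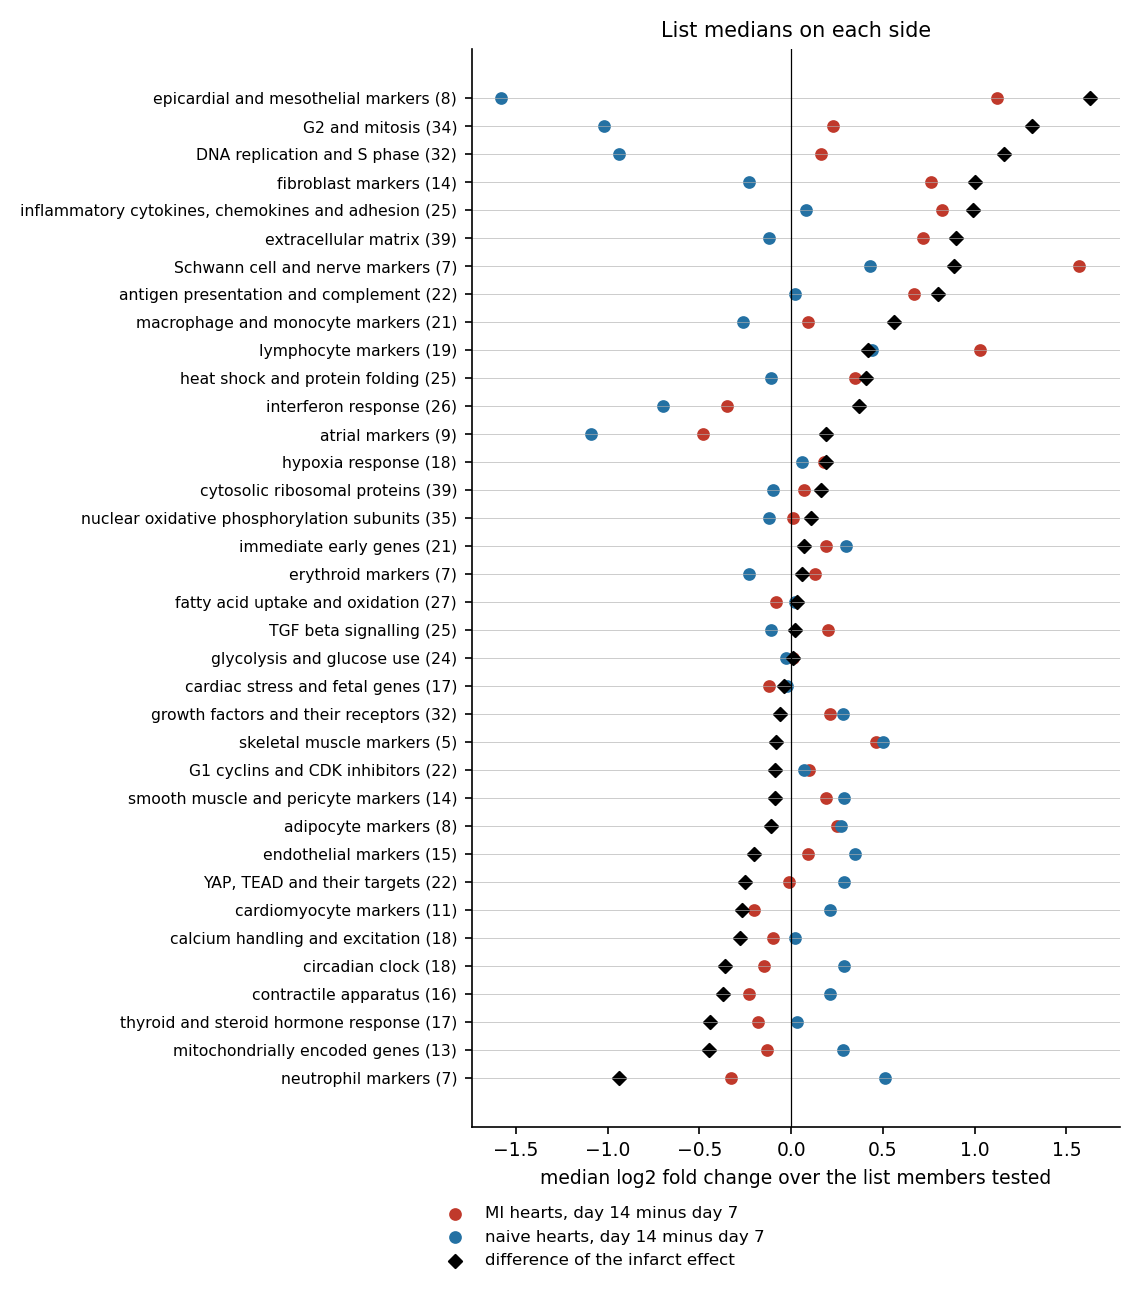
Median log2 fold change over the tested members of each of 36 gene lists (number of members in brackets), from day 7 to day 14 in MI hearts (red) and naive hearts (blue), and for the change of the infarct effect (black). The S phase list and the G2 and mitosis list owe their position mostly to naive hearts, and the fibroblast, matrix, inflammatory and complement lists to MI hearts. For the inflammatory and complement lists this rests on 1 library: their black medians were -0.07 and 0.00 without MI day 14 replicate 2.

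The other lists had these medians. Interferon response genes had a median of 0.37, with both sides negative (-0.35 and -0.70). Lymphocyte markers were at 0.42, Schwann cell and nerve markers at 0.89, hypoxia genes at 0.19, cytosolic ribosomal proteins at 0.16, atrial markers at 0.19, nuclear oxidative phosphorylation subunits at 0.11, immediate early genes at 0.07, erythroid markers at 0.06, fatty acid genes at 0.03, TGF beta genes at 0.02 and glycolysis at 0.01. Lower medians were seen for cardiac stress genes (-0.04), growth factors (-0.06), skeletal muscle (-0.08), smooth muscle (-0.09), G1 cyclins and inhibitors (-0.09), adipocytes (-0.11), endothelium (-0.20), YAP and TEAD targets (-0.25), cardiomyocyte markers (-0.27), calcium handling (-0.28), the circadian clock (-0.36), thyroid and steroid response (-0.44), mitochondrially encoded genes (-0.45) and neutrophil markers (-0.94). Of these lists, lymphocyte markers were at -0.11 and interferon genes at -0.08 without MI day 14 replicate 2, and Schwann cell markers at 0.46 without MI day 7 replicate 3. Neutrophil markers were at 0.99 without MI day 7 replicate 3, which was the highest of the 12 libraries for 5 of the 7, at 2.39 without the 2 second-set libraries and at -4.09 without MI day 14 replicate 2. Calcium handling, the circadian clock, thyroid and steroid response and the mitochondrially encoded genes were at 0.06, 0.00, 0.15 and 0.39 without the 2 second-set libraries. The mitochondrial value moves with naive day 14 replicate 3, which was the highest of the 12 libraries for all 13 of these genes. ND1 was at 12400 CPM in MI day 7 replicate 3 and at 19600 CPM in naive day 14 replicate 3, against 2290 to 4380 CPM in the other 10. Without these libraries its change was 0.43, against -2.18 with them.

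On day 28, in pigs that the change of the infarct effect does not use, edgeR called 1053 genes between MI and naive hearts (6.86%). Among the 30 genes with p under 0.001, 6 were called, and all 6 differed in the same direction as on day 14. They were ENSSSCG00000035617, ENSSSCG00000038196 and MYO18B, which were lower in MI than in naive hearts on day 28, and CRB2, KRT7 and TUBB3, which were higher. Of the 17 naive-side genes 1 was called (5.88%), against 4 of the 10 genes of both sides (40.0%) and 1 of the 3 of the MI side (33.3%). The MI day 28 group holds 2 libraries, 1 of them from the second set.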

How the data were processed

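RNA of 21 pig hearts was measured as read counts per Ensembl gene. The counts are as deposited by the authors, and per the submitters' processing notes they came from Trim Galore, STAR 2.5.2, the Sscrofa11.1 genome, HTSeq 0.6.1 and DESeq2. The annotation release and strand setting were not given in the sources used here, so overlapping genes and near-identical copies are uncertain. The deposited table held 25880 genes. Samples were grouped by the injury and age labels. The members and lists were chosen with earlier results of these data known.

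Genes were filtered with filterByExpr over 8 groups (15359 kept), scaled by TMM and fitted in edgeR 4.0.16 (R 4.3.3; glmQLFit, robust) with all 21 libraries, 13 residual degrees of freedom and a biological coefficient of variation of 0.373. Contrasts were tested two-sided with the quasi-likelihood F test and Benjamini-Hochberg adjustment over all genes kept, and a gene was called at an adjusted p under 0.05. Levels are CPM with TMM-scaled library sizes. SE were derived from the F statistic. The sum of the MI and naive contrasts tests whether the sides differ in size where they run in opposite directions. P-values set each difference against the spread between pigs of the same group, which was estimated over all 8 groups and 21 libraries. Library totals were 37002909 to 95559841, and replicate libraries differed by 51.7 to 914 times counting noise (chi-square per degree of freedom), so none was a repeat deposit. The scripts were tested on simulated data.

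Named were the 12 genes higher and the 12 lower with a symbol and the smallest p, the member of each list with the smallest p, and MKI67, TOP2A, CCNB1, CDK1, MYH6, MYH7, NPPA, NPPB, COL1A1, POSTN, CD68, PTPRC, ADIPOQ and ACTA2. MYH6 did not pass the filter. Not every gene the rule names is reported here. The genes with an unadjusted p under 0.001 were used for the sides because fewer than 20 genes were called. Alternatives were DESeq2 1.42.0, its size factors within edgeR, mitochondrial genes left out of library sizes, no filter, a fit to the 12 libraries, each library left out, the second set left out or as a term, and limma 3.58.1 voom with sample weights. Added after the data were seen were leaving out the 2 second-set libraries of the 4 groups, voom without weights and thinning to the smallest total. Figures were drawn with matplotlib 3.10.9.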

Additional observations from a re-analysis of the deposited data

Results flagged for a closer look

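The infarct effect on ENSSSCG00000035617 differed between day 7 and day 14 by the interaction contrast, with a log2 change of -3.74 (edgeR adjusted p = 0.0236). MI hearts stood above naive hearts on day 7 in 3 of 3 libraries and below them on day 14 in 3 of 3.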

How the results depend on the processing

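No paired analysis was possible because the replicate numbers were given in accession order and pair no pigs. The direction of ENSSSCG00000035617 held in all 23 alternatives. The number of genes called in the change of the infarct effect was 27 by DESeq2, 0 with a term for the second set, 5 by voom with sample weights and 0 to 1 without single libraries (1 only without MI day 7 replicate 2 or naive day 14 replicate 1). For MI hearts day 14 against day 7 it was 33 by DESeq2, 2 in a fit to the 12 libraries, 2 without the second set, 1 without its 2 libraries here and 0 to 1 without single libraries. For naive hearts it was 90 by DESeq2 and 918 by voom with weights. For MI against naive it was 263, 3 (12 libraries) and 2040 (voom with weights) on day 7, and 14, 2 (no second set), 1 (without its 2 libraries here) and 0 to 1 (single libraries) on day 14. Counted only among the genes that the same setting called in the change of the infarct effect, genes with unequal sides numbered 0, 3 by DESeq2 and 1 without the second set or its 2 libraries here. The cause of these differences was not tested.

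The 30 genes with p under 0.001 kept their sign in all 23 alternatives, and 25 to 29 of them kept their side. They were chosen by their p in the main fit, and the alternatives use largely the same counts. A kept sign is therefore no independent support. An unadjusted p under 0.001 was kept by 29 of the 30 by DESeq2. It was kept by 7 without MI day 14 replicate 2 and by 6 without the 2 second-set libraries. Of the named genes, some reversed without the second set and without its 2 libraries here: PLIN1 (-1.75) to 0.86 and 0.83, MYH7 (-0.58) to 0.02 and 0, PROX1 (-1.15) to 0.02 and 0.01, ND1 (-2.18) to 0.46 and 0.43 and, with a term for the set, 0.18, and ADIPOQ (-0.09) to 6.64 and 6.63, 2.12 with the term, 5.3 by voom with weights and 1.39 without. As single libraries were left out, NPPA ran from -2.49 to 1.49, WT1 from -0.19 to 1.92, C3 from -0.54 to 3.64, MARCO from -1.21 to 4.9, CD68 from -0.03 to 0.85 and ADIPOQ from -3.62 to 6.57. WT1, C3, MARCO and CD68 reversed without MI day 14 replicate 2. Depth limits the genes under 1 CPM, where a few reads set a value.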
